A study of Homo sapiens with 9 samples.

Results

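HCA2 fibroblasts made senescent with doxorubicin and sorted as PD-L1-positive were compared with proliferating HCA2 fibroblasts, gene by gene and with secreted, surface and immune genes first. Transcript levels had been deposited as FPKM (fragments per kilobase of a transcript, corrected for how deeply the library was sequenced). They were summed for each of 26196 gene symbols, and 11800 genes whose mean over the 6 libraries compared was at least 1 FPKM were tested. HCA2 is a line of human foreskin fibroblasts. The senescent cells had been given 100 nM doxorubicin, a drug that damages DNA, for 24 hours, had then been kept in 100 nM BI-2536, which blocks the kinase PLK1 of mitosis, and were collected after 12 days in all, per the labels' protocols. They were sorted for PD-L1, per the series' design, and the positive fraction gave 3 libraries. The 3 normal libraries are labelled proliferative and PD-L1 positive. The protocol text on inducing senescence is attached to them too, but no label calls them treated or sorted. The whole series holds 9 libraries, and the other 3 are PD-L1-negative senescent cells. Drug, inhibitor, time in culture and any sorting differ together between the groups, so their effects cannot be told apart. The cells are of 1 line, and the labels do not say that replicates were separate cultures, so the p-values measure the spread between these libraries, which may be technical.

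Senescence is a stable exit from the cell cycle that follows DNA damage, among other stresses. Senescent fibroblasts stay metabolically active and release cytokines, chemokines, proteases, growth factor binding proteins and matrix, together called the senescence-associated secretory phenotype, much of it under the transcription factor NF-kB. PD-L1, the product of CD274, is a surface ligand that inhibits T cells through PD-1, and it belongs to a wider set of surface molecules by which immune cells read a damaged cell.

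Estimated from the smallest steps between low values, the PD-L1-positive libraries held 11500000 to 16400000 fragments and the normal ones 14000000 to 17800000. Correlations of log2 values were taken across genes, which are no replicates, and were 0.977 to 0.985 among the PD-L1-positive libraries, 0.942 to 0.977 among the normal ones and 0.877 to 0.936 between the groups. The SD between replicates was over 0.5 on the log2 scale for 364 genes in PD-L1-positive and 1182 in normal cells. MIR6723 alone held 11.7% of the FPKM of PD-L1-positive replicate 3. All 8 dermal fibroblast markers reached 1 FPKM, and their sum was 11899 to 13203 FPKM in PD-L1-positive and 8779 to 11265 in normal libraries. Of the markers of other cells, 1 of 6 for keratinocytes (KRT10), 2 of 5 for melanocytes (MITF and PMEL), 2 of 6 for endothelium (FLT1 and TEK) and 1 of 6 for leukocytes (CD14) reached 1 FPKM in any of these libraries. For pericytes and smooth muscle 4 of 6 markers did (CSPG4, DES, NOTCH3 and KCNJ8). KRT1 and DCT were at 0 in all 6 libraries.

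Differences were taken on the log2(FPKM + 0.5) scale as PD-L1-positive minus normal, and a gene was called at a limma adjusted p under 0.05. By this rule 2159 genes, 18.3% of those tested, were higher and 2904, 24.6%, were lower, which makes 5063 or 42.9% in either direction. With a difference of at least 1 besides, 662 (5.61%) were higher and 718 (6.08%) lower. All PD-L1-positive libraries lay on one side of all normal ones for 2926 genes that were higher (24.8%) and 3867 that were lower (32.8%). The median over all genes tested was −0.06. When the libraries were instead scaled to equal FPKM sums the median was −0.17 and the calls split into 1581 higher and 3609 lower. With median-of-ratios scaling the median was 0.00 and the split was near even, with 2484 higher and 2501 lower, so the excess of lower genes depends on the scaling. RNA was measured in bulk, so that fewer cells expressing a gene and less of its RNA per cell cannot be told apart.

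The gene that encodes PD-L1 was lower in the senescent cells sorted for the protein. CD274 measured 1.23, 1.32 and 1.38 FPKM in PD-L1-positive senescent libraries and 6.23, 3.48 and 2.89 FPKM in normal libraries. The groups did not overlap, and CD274 fell by 1.31 on the log2 scale (SE 0.26, 95% interval −1.92 to −0.71, limma adjusted p = 0.00823). An exact two-sided permutation test of it gave p = 0.1, the smallest that 3 libraries against 3 allow. In PD-L1-negative senescent libraries CD274 measured 0.677, 0.708 and 0.909 FPKM, below every PD-L1-positive one. The direct comparison of these fractions, given below, called no gene. MKI67, an antigen of cycling cells, measured 4.65, 4.49 and 6.09 FPKM in PD-L1-positive libraries and 61.3, 33.4 and 12.7 FPKM in normal ones. LMNB1, which encodes lamin B1 of the nuclear lamina, measured 4.51, 4.35 and 5.02 FPKM in PD-L1-positive cells and 64.5, 43.2 and 18.4 FPKM in normal cells. Both fell, MKI67 by 2.45 (adjusted p = 0.0102) and LMNB1 by 2.88 (adjusted p = 0.00323), and normal replicate 3 was the lowest of its group for both. Without that library the difference of MKI67 was −3.05. CDKN1A, the gene of the cell cycle inhibitor p21, measured 505, 498 and 524 FPKM in PD-L1-positive cells and 110, 214 and 311 FPKM in normal cells, again with normal replicate 3 nearest to the senescent ones. It rose by 1.39 (adjusted p = 0.0179), but not at this threshold without PD-L1-positive replicate 1 (0.0582), 2 (0.0563) or 3 (0.0574) or normal replicate 2 (0.053). CDKN2A, which encodes p16 among other products, had a log2 difference of 0.30 and no call.

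Genes of the secreted lists took a larger share of the summed FPKM in the senescent cells. These lists follow families and also hold some membrane and intracellular proteins, such as IGF2R, MMP14, ANXA2 and SERPINH1. The 337 genes of 12 secreted lists held 10.5%, 9.53% and 9.35% of the FPKM in PD-L1-positive libraries, against 6.48%, 5.90% and 7.14% in normal libraries, without overlap. Of 235 that were tested, 112 were called higher and 25 lower, that is 47.7% and 10.6%, beside backgrounds of 18.3% and 24.6%. The median difference over these genes was 0.56. Among 220 surface genes the counts were 61 (27.7%) and 35 (15.9%), and among 151 immune genes 42 (27.8%) and 31 (20.5%). The median difference was 0.19 over surface and −0.01 over immune genes. Among 228 intracellular genes of the cell cycle, p53, lysosome and actin the counts were 52 (22.8%) and 125 (54.8%). The plot of calls by list sets these counts side by side. List counts below without a share are to be read beside the 18.3% higher and 24.6% lower over all genes. Counts over all genes also changed in the alternative runs quoted for some lists. With 1 library left out they were 1315 to 2534 higher and 1677 to 3378 lower. Under equal FPKM sums they were 1581 higher and 3609 lower.

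**Figure D1:**
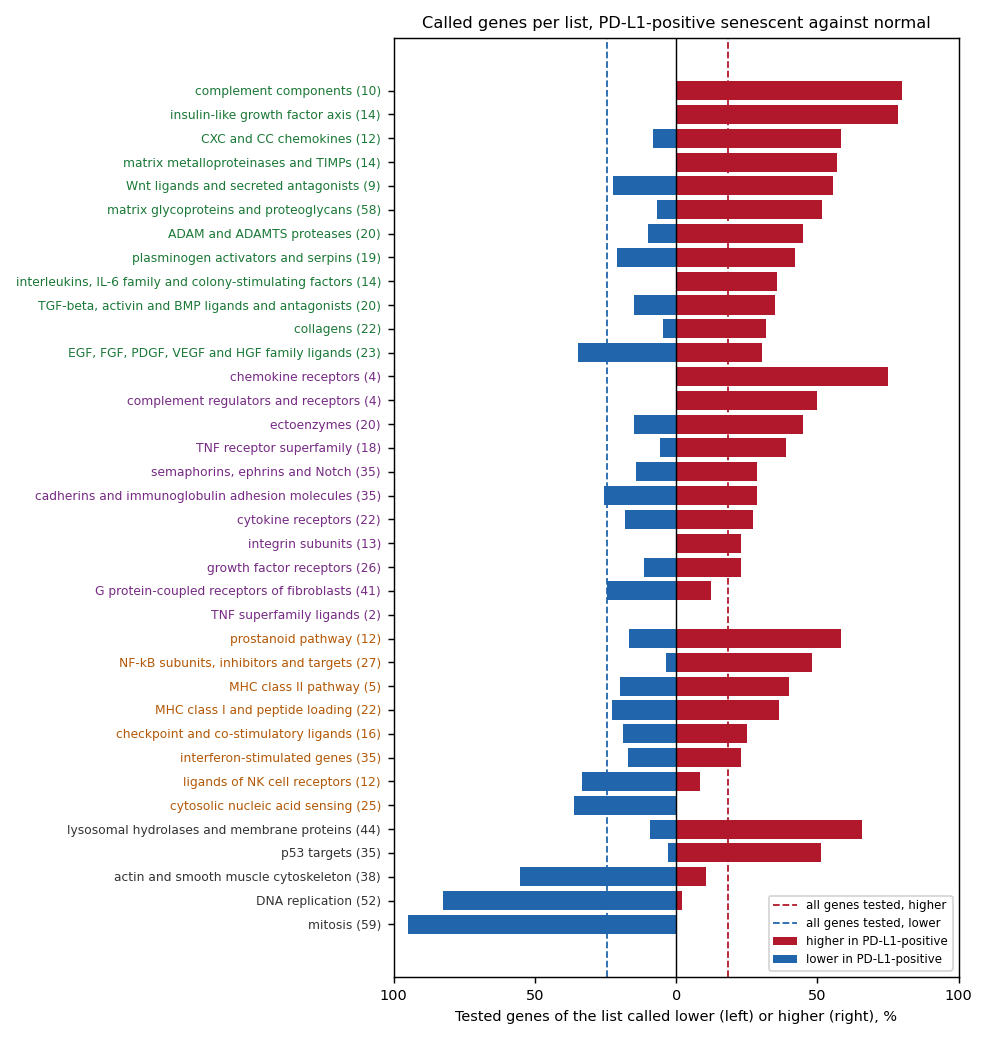
Share of the tested members of each list that were called higher (red bars, to the right) or lower (blue bars, to the left) in PD-L1-positive senescent than in normal fibroblasts, in percent on the horizontal axis, with 1 list per row. Label colours mark secreted (green), surface (purple), immune (orange) and intracellular (black) lists, and dashed lines mark the shares over all genes tested, 18.3% higher and 24.6% lower. The insulin-like growth factor axis and the complement components reach furthest to the right, and mitosis reaches furthest to the left.

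Chemokines, which guide leukocytes by binding receptors on them, did not move as one. Of 12 tested, 7 rose and 1 fell, with a median of 1.2 over the tested members, and 12 others were below the filter. CXCL6, a ligand of neutrophil receptors, measured 125, 67.1 and 91.1 FPKM in PD-L1-positive libraries and 6.68, 8.36 and 7.89 FPKM in normal libraries, a log2 difference of 3.50 (SE 0.22, adjusted p = 0.000567). Every senescent library was far above every normal one. CCL2, which draws monocytes, measured 355, 341 and 330 FPKM in PD-L1-positive libraries and 89.1, 141 and 158 FPKM in normal ones, and rose by 1.44. CCL7, a neighbour of the same kind, measured 5.95, 4.04 and 2.78 FPKM in PD-L1-positive libraries, against 0.170, 0.863 and 0.212 FPKM in normal libraries, and rose by 2.40. CXCL14 rose as well, by 1.87. The member that fell was CXCL12, the ligand of CXCR4 that holds stem cells and lymphocytes in stroma. It measured 65.6, 44.7 and 89.3 FPKM in PD-L1-positive libraries and 329, 377 and 247 FPKM in normal ones, and fell by 2.28 (adjusted p = 0.0019). CXCL8, which attracts neutrophils, measured 76.5, 62.1 and 56.1 FPKM in PD-L1-positive libraries and 83, 70.7 and 73.1 FPKM in normal ones, with overlapping groups and no call (log2 −0.23, adjusted p = 0.21).

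Close relatives of CXCL6 on chromosome 4 were given as a contrast, chosen after their values were seen. Promoters matched by symbol for 9602 of the 11800 tested genes, in RefSeq windows on GRCh38.p14 of 250 bases before to 50 bases after a gene's listed start. They were searched on both strands for the NF-kB letters GGGA and TTCC with any 2 bases between them, which were in 445 of 27305 promoters (1.6%), in 150 of the tested ones (1.6%), in 5 of 10 chemokine promoters and in 6 of 22 promoters of NF-kB genes (27.3%). The 5 chemokine promoters are shown because the differences of their genes vary while all of them hold the match. Each line gives 80 bases upstream of the start, written 5′ to 3′ along the gene, with the matching letters in capitals, and comes from chr4:73836553-73836632 (plus strand) for CXCL6, chr4:73998724-73998803 (minus strand) for CXCL5, chr4:73869279-73869358 (plus strand) for CXCL1, chr4:74099229-74099308 (minus strand) for CXCL2 and chr4:74038724-74038803 (minus strand) for CXCL3.
CXCL6: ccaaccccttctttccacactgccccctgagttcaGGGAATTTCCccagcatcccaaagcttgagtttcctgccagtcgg
CXCL5: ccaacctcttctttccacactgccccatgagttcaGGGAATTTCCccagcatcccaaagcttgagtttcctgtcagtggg
CXCL1: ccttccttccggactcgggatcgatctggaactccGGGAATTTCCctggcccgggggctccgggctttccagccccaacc
CXCL2: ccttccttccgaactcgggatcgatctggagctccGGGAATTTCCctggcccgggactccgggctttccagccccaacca
CXCL3: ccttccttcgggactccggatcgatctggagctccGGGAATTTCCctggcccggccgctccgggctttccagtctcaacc
Aligned without gaps, the excerpts of CXCL6 and CXCL5 were identical at 76 of 80 bases (95%), those of CXCL1 and CXCL3 at 73, and those of CXCL6 and CXCL1 at 34. CXCL5 measured 8.36, 7.61 and 7.58 FPKM in PD-L1-positive libraries and 11.5, 7.01 and 5.53 FPKM in normal ones, a log2 difference of 0.03 (95% interval −0.54 to 0.60), against 3.50 for CXCL6. CXCL1 averaged 118 ± 24.4 FPKM in PD-L1-positive and 70.9 ± 2.98 FPKM in normal cells (SD, n = 3 each) and rose by 0.71, and CXCL2 averaged 27.8 ± 8.15 FPKM in PD-L1-positive and 11.6 ± 3.93 FPKM in normal cells and rose by 1.24. CXCL3 averaged 10.1 FPKM in PD-L1-positive and 8.47 FPKM in normal cells without a call (log2 0.24, adjusted p = 0.149). CXCL6 and CXCL5, and CXCL1, CXCL2 and CXCL3, are groups of close copies, and how reads that fit several were shared is not given in the sources used here, so the split between them is uncertain. In all 5 windows a second match on the opposite strand begins 1 base further on and overlaps the one in capitals. A match of letters is a description of the window and not a binding site.

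Among interleukins, relatives of IL-6 and colony-stimulating factors, 5 of 14 tested rose and none fell. IL1B, the secreted form of IL-1 that acts on most cell types, measured 20.2, 21.5 and 24.4 FPKM in PD-L1-positive libraries and 6.71, 7.86 and 9.32 FPKM in normal ones, and rose by 1.42 (adjusted p = 0.00134). CSF3, the growth factor of granulocytes, rose by 1.65, the IL-6 relative CTF1 by 1.38, and CSF1, the growth factor of macrophages, by 1.08. IL6 itself measured 398, 304 and 384 FPKM in PD-L1-positive libraries and 69.3, 133 and 248 FPKM in normal ones. It rose by 1.45 (adjusted p = 0.0308) without overlap, but missed the threshold without PD-L1-positive replicate 1 (0.095), 2 (0.066) or 3 (0.0894) or normal replicate 2 (0.0883). LIF, also of this family, measured 116, 109 and 178 FPKM in PD-L1-positive libraries and 5.06, 28.4 and 76.9 FPKM in normal ones. Its groups did not overlap either, and with normal values this far apart its log2 difference of 2.51 (SE 0.86) had an adjusted p of 0.0531. Without normal replicate 3 the adjusted p of LIF was 0.00701, and without normal replicate 1 it was 0.0405. IL6 and LIF were lowest in normal replicate 1 and highest in normal replicate 3, whereas MKI67 ran the other way over these libraries. IL11 measured 47.2, 28.6 and 120 FPKM in PD-L1-positive and 40.7, 59.6 and 250 FPKM in normal libraries, and was not called.

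**Figure D2:**
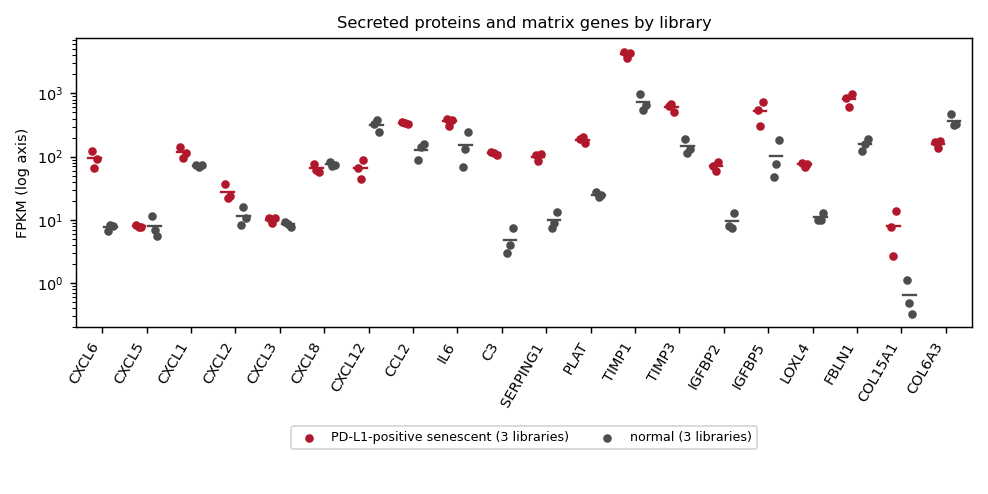
FPKM (log axis) of 20 genes of secreted proteins in each library, with PD-L1-positive senescent libraries in red to the left of normal libraries in grey for every gene, points for libraries and bars for means. CXCL6, C3, SERPING1, PLAT and IGFBP2 lie apart from normal cells on the high side and CXCL12 and COL6A3 on the low side, whereas CXCL5, CXCL3 and CXCL8 of both groups lie close together.

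The insulin-like growth factor axis had a larger share of its members called higher than any other of the 12 secreted lists except complement. Its binding proteins hold IGF in the extracellular space, and the list also holds the receptors IGF1R, IGF2R and INSR. Of 14 tested members 11 rose, IGF2R among them, and none fell, with a median of 1.35. Together they made up 1.16% of the FPKM in PD-L1-positive and 0.368% in normal cells. IGFBP2 measured 71.6, 59.8 and 81.7 FPKM in PD-L1-positive libraries and 7.98, 7.48 and 12.7 FPKM in normal ones, and rose by 2.88 (SE 0.22, adjusted p = 0.000733). IGFBP4 measured 2314, 2472 and 2099 FPKM in PD-L1-positive libraries and 478, 540 and 868 FPKM in normal ones, which put it among the most abundant transcripts of the senescent cells. IGFBP5, with 549, 301 and 739 FPKM in PD-L1-positive libraries, against 47.6, 76.0 and 181 FPKM in normal cells, rose by 2.51. IGFBP6 rose by 2.03, and IGFBP7 by 1.33. PAPPA, a protease that cuts IGFBP4 and so frees IGF, averaged 19.0 FPKM in PD-L1-positive and 7.32 FPKM in normal cells and rose by 1.36. The growth factor IGF2 averaged 24.6 FPKM in PD-L1-positive and 19.6 FPKM in normal cells, with overlapping groups and no call.

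Ligands of the EGF, FGF, PDGF, VEGF and related families were divided. Of 23 tested, 7 were higher (30.4% beside 18.3% over all genes) and 8 lower (34.8% beside 24.6%). Without normal replicate 2, 5 were lower. EREG, an EGF receptor ligand, measured 11.6, 11.5 and 10.1 FPKM in PD-L1-positive libraries and 1.91, 2.31 and 2.72 FPKM in normal ones, and rose by 2.05. FGF7, a fibroblast product that acts on epithelium, measured 36.2, 27.7 and 34.8 FPKM in PD-L1-positive libraries, against 12.0, 10.9 and 12.3 FPKM in normal libraries. NRG1, a ligand of ERBB receptors, measured 7.84, 9.12 and 6.26 FPKM in PD-L1-positive libraries and 26.3, 25.7 and 14.8 FPKM in normal ones, and fell by 1.44. FGF5 fell by 1.41 and FGF1 by 1.26, so that 3 FGF genes moved in different directions. VEGFA, the main growth factor of vessels, averaged 107 ± 54.5 FPKM in PD-L1-positive and 41.4 ± 33.5 FPKM in normal cells (SD, n = 3 each) and missed the threshold (adjusted p = 0.0627). Without normal replicate 3 its adjusted p was 0.00411.

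In the TGF-beta and BMP families, 7 of 20 tested genes rose (35% beside 18.3% over all genes) and 3 fell (15% beside 24.6%). Those that fell numbered 1 without PD-L1-positive replicate 1 and 0 without PD-L1-positive replicate 2. GDF15, a distant TGF-beta relative that responds to p53, measured 84.7, 79.5 and 108 FPKM in PD-L1-positive libraries and 8.83, 15.3 and 36.7 FPKM in normal ones, and rose by 2.36. GDF5, a BMP-like ligand of joints, rose by 2.15, and CHRDL1, a secreted BMP antagonist, by 2.11. Of 9 Wnt ligands and antagonists, 5 rose (55.6% beside 18.3% over all genes) and 2 fell (22.2%, near the 24.6% over all genes). Only 1 fell without PD-L1-positive replicate 2 or 3 or normal replicate 1 or 2. SFRP4, a decoy receptor that binds Wnt proteins, measured 9.30, 1.96 and 3.90 FPKM in PD-L1-positive libraries and 0, 0.0190 and 0.0698 FPKM in normal ones. With normal cells this close to 0 its log2 difference of 3.16 depends on the value added before the log. SFRP1 of the same family averaged 57.2 FPKM in PD-L1-positive and 23.9 FPKM in normal cells and rose by 1.24, and DKK3 rose by 1.08. DKK1, an antagonist that blocks Wnt co-receptors, measured 279.6, 239.6 and 217 FPKM in PD-L1-positive libraries and 431, 428 and 304 FPKM in normal ones and fell by 0.65, a call lost without those same 4 libraries, and WNT3 fell by 0.85.

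Some proteases rose together with their inhibitors. Of 14 metalloproteinases and TIMPs 8 rose and none fell. Those that rose were MMP2, MMP14, MMP15, MMP17 and MMP24 and the inhibitors TIMP1, TIMP2 and TIMP3. The family made up 1.42% of the FPKM in PD-L1-positive and 0.461% in normal cells. Most of this rise in share lay in TIMP1, which averaged 4233 FPKM in PD-L1-positive and 732 FPKM in normal cells. TIMP1, a broad inhibitor of metalloproteinases, measured 4611, 3673 and 4416 FPKM in PD-L1-positive libraries and 995, 538 and 664 FPKM in normal ones, and rose by 2.57 (SE 0.22, adjusted p = 0.00104). TIMP3, the inhibitor that stays bound to matrix, measured 632, 676 and 514 FPKM in PD-L1-positive libraries and 189, 115 and 134 FPKM in normal ones. Among the proteases, MMP2, a gelatinase, rose by 1.16 and MMP14, a membrane enzyme that activates MMP2, by 1.04. MMP1, a collagenase, measured 234, 227 and 198 FPKM in PD-L1-positive libraries and 245, 111 and 70.5 FPKM in normal ones, and MMP3, which cuts many matrix proteins, measured 319, 211 and 172 FPKM in PD-L1-positive libraries, against 259, 174 and 134 FPKM in normal cells. The groups overlapped for MMP1 and MMP3 and neither was called. Of 20 ADAM and ADAMTS proteases 9 rose and 2 fell. Those that fell were ADAM19 and ADAMTS1, with 1 falling without PD-L1-positive replicate 1 or 2 or normal replicate 1 or 2, 0 without PD-L1-positive replicate 3 and 3 without normal replicate 3. Those that rose were led by ADAMTS5, which cleaves aggrecan and averaged 7.87 ± 1.5 FPKM in PD-L1-positive and 1.32 ± 0.651 FPKM in normal cells (SD, n = 3 each). ADAMTS4, with the same substrate, rose by 1.88.

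In the plasminogen system and serpins, 8 of 19 tested genes rose (42.1% beside 18.3% over all genes). Another 4 fell, a share of 21.1% that is near the 24.6% over all genes. PLAT, tissue plasminogen activator, measured 187, 207 and 165 FPKM in PD-L1-positive libraries and 27.2, 22.7 and 25.0 FPKM in normal ones, a log2 difference of 2.87 (SE 0.12, adjusted p = 0.000346). PLAU, the urokinase, rose by 0.86. Inhibitors of both rose as well. SERPINE2 averaged 1439 ± 252 FPKM in PD-L1-positive and 325 ± 63.9 FPKM in normal cells, and SERPINB2 averaged 60.2 ± 17.5 FPKM in PD-L1-positive and 14.3 ± 3.81 FPKM in normal cells (SD, n = 3 each). SERPINB7 went the other way, with 5.34, 4.48 and 3.70 FPKM in PD-L1-positive libraries and 36.7, 25.5 and 24.5 FPKM in normal ones, and fell by 2.54. SERPINH1, a chaperone of collagen in the endoplasmic reticulum, fell by 0.86, and S100A10, a surface receptor of plasminogen, fell by 1.35.

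Of 22 collagen genes 7 rose and 1 fell, and without normal replicate 2 these were 4 and 3, while 4 fell under scaling to equal FPKM sums. COL15A1, of basement membrane zones, measured 7.76, 2.70 and 13.9 FPKM in PD-L1-positive libraries and 1.13, 0.474 and 0.321 FPKM in normal ones, and without PD-L1-positive replicate 2 its log2 difference of 2.73 was 3.32. The chains of collagen VI, a microfibril of fibroblast matrix, moved apart. COL6A3 measured 168, 139 and 177 FPKM in PD-L1-positive libraries and 466, 315 and 333 FPKM in normal ones and fell by 1.19, whereas COL6A1 measured 646, 675 and 664 FPKM in PD-L1-positive libraries, against 456, 316 and 356 FPKM in normal libraries and rose by 0.83. COL1A1, the main fibrillar chain, averaged 3982 FPKM in PD-L1-positive and 3444 FPKM in normal cells and was not called.

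Of 58 matrix glycoproteins and proteoglycans 30 rose and 4 fell, with 2 falling without PD-L1-positive replicate 1 or 2 or normal replicate 2. LOXL4, an enzyme that crosslinks collagen and elastin, measured 80.6, 69.7 and 76.2 FPKM in PD-L1-positive libraries and 9.74, 10.1 and 12.8 FPKM in normal ones, and rose by 2.75 (SE 0.13, adjusted p = 0.000352). FBLN1, an elastic fibre component, measured 847, 612 and 980 FPKM in PD-L1-positive libraries and 124, 161 and 188 FPKM in normal ones. The small leucine-rich proteoglycans, which bind and space collagen fibrils, were divided. FMOD rose by 2.86, LUM by 1.86 and DCN by 1.65, while BGN averaged 200 ± 30.8 FPKM in PD-L1-positive and 376 ± 51.3 FPKM in normal cells (SD, n = 3 each) and fell by 0.91. TNXB, a tenascin, measured 8.31, 5.27 and 12.8 FPKM in PD-L1-positive libraries and 0.213, 0.306 and 0.568 FPKM in normal ones, but it shares sequence with a pseudogene, so its value is uncertain. LUM and DCN also count among the fibroblast markers above.

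Complement, the blood cascade that tags cells for phagocytes, had 8 of 10 tested components higher and none lower, with a median of 1.32 and 5 higher without normal replicate 2. C3, at which all its pathways meet, measured 117, 115 and 105 FPKM in PD-L1-positive libraries and 3.01, 4.01 and 7.32 FPKM in normal ones. Its log2 difference of 4.50 (SE 0.27, adjusted p = 0.000567) was exceeded only by TXNIP and the small nucleolar RNA SNORA70 among the named genes. C1S, a protease of the classical pathway, measured 166, 111 and 187 FPKM in PD-L1-positive libraries, against 31.7, 35.4 and 64.1 FPKM in normal libraries and rose by 1.85. CFB and CFD of the alternative pathway averaged 4.81 and 2.08 FPKM in PD-L1-positive cells and 1.26 and 0.513 FPKM in normal cells. Some brakes on the cascade rose too. SERPING1, the inhibitor of C1 proteases, measured 105, 84.3 and 111 FPKM in PD-L1-positive libraries and 7.45, 8.98 and 13.5 FPKM in normal ones and rose by 3.30. Of 4 tested regulators and receptors CLU rose by 2.24 and CD46, a membrane cofactor that inactivates C3b, by 0.70. The summed leukocyte markers were 1.15 to 1.69 FPKM in PD-L1-positive and 0.578 to 1.04 FPKM in normal libraries, with CD14 as the largest, and its part in the immune results was not tested.

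At the cell surface, receptors for cytokines moved in both directions and were called about as often as other genes. Of 22 tested, 6 rose (27.3% beside 18.3% over all genes) and 4 fell (18.2% beside 24.6%). IL6ST, the signalling chain shared by IL-6, LIF and their relatives, measured 128, 124 and 125 FPKM in PD-L1-positive libraries and 52.7, 54 and 71.5 FPKM in normal ones, and rose by 1.09 (adjusted p = 0.00198). IFNGR1 rose by 0.69, IFNAR1 by 0.61 and LEPR, the leptin receptor, by 0.98. IL7R, the IL-7 receptor alpha chain, measured 6.98, 5.57 and 5.96 FPKM in PD-L1-positive libraries and 33.0, 38.2 and 31.7 FPKM in normal ones, and fell by 2.38 (SE 0.12, adjusted p = 0.000444). IL27RA fell by 1.56 and IL17RE by 1.35, each to about 1 FPKM. IL1R1, which receives IL-1, averaged 64.8 FPKM in PD-L1-positive and 33.4 FPKM in normal cells, with overlapping groups and an adjusted p of 0.0519. LIFR and IL13RA2 had log2 differences of −0.03 and −0.38 without a call.

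Only 4 of 18 chemokine receptors reached the filter, and 3 of them were called higher. CCR7, the receptor by which lymphocytes and dendritic cells enter lymph nodes, measured 7.53, 12.5 and 14.3 FPKM in PD-L1-positive libraries and 0.562, 0.791 and 0.701 FPKM in normal ones, and rose by 3.29 (SE 0.24, adjusted p = 0.000701). ACKR4, a scavenger of the ligands of CCR7, averaged 9.14 FPKM in PD-L1-positive and 4.22 FPKM in normal cells and rose by 1.02. PTPRC, the pan-leukocyte antigen CD45, was at most 0.375 FPKM in any of the 6 libraries, and CD3E, of T cells, was at 0 in all but 1 of them. In the TNF receptor superfamily 7 of 18 rose and 1 fell. Decoy and death receptors of TRAIL were among those that rose. The decoy TNFRSF10C measured 7.08, 5.83 and 5.90 FPKM in PD-L1-positive libraries and 0.721, 1.80 and 1.64 FPKM in normal ones, TNFRSF10D rose by 0.83 and the death receptor TNFRSF10B by 0.66. TNFRSF12A, the receptor of TWEAK, fell by 0.74.

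Growth factor receptors gave 6 of 26 higher (23.1% beside 18.3% over all genes) and 3 lower (11.5% beside 24.6%). Without normal replicate 3, 10 were higher. TGFBR2, the TGF-beta receptor that binds ligand first, measured 93.8, 92.8 and 83.1 FPKM in PD-L1-positive libraries and 48.0, 40.8 and 36.2 FPKM in normal ones, and rose by 1.11. FGFR1 rose by 0.88. AXL, a receptor tyrosine kinase for the ligand GAS6, measured 97.3, 104 and 102 FPKM in PD-L1-positive libraries and 247, 219 and 151 FPKM in normal ones, and fell by 0.99. FLT1, a VEGF receptor, fell by 0.87 and is also the main contributor to the endothelial marker sum, which was 20.7 to 24.8 FPKM in PD-L1-positive and 35.4 to 48.2 FPKM in normal libraries. PECAM1 and CDH5, which define endothelium, were at most 0.0490 FPKM.

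The list of cadherins and immunoglobulin adhesion molecules, in which tetraspanins are counted too, had 10 of 35 higher (28.6% beside 18.3% over all genes). It had 9 lower (25.7% beside 24.6%). Without PD-L1-positive replicate 2 or normal replicate 2, 5 were lower. ICAM1, the ligand of leukocyte integrins, measured 71.7, 73.1 and 81.4 FPKM in PD-L1-positive libraries and 8.82, 13.2 and 32.2 FPKM in normal ones, and rose by 2.23. L1CAM rose by 1.73, and the tetraspanins CD82, CD151 and CD81 by 1.31, 0.94 and 0.92. N-cadherin (CDH2), the main cadherin of fibroblasts, measured 28.0, 33.4 and 22.7 FPKM in PD-L1-positive libraries and 87.8, 72.5 and 75.1 FPKM in normal ones, and fell by 1.48. CDH4, or R-cadherin, averaged 1.03 FPKM in PD-L1-positive and 6.91 FPKM in normal cells and fell by 2.29. MCAM and CSPG4, which mark pericytes as well, fell by 1.29 and 1.32. The summed markers of pericytes and smooth muscle were 36.4 to 39.2 FPKM in PD-L1-positive and 57.2 to 65.1 FPKM in normal libraries. CSPG4 was the largest of them, with means of 17.8 FPKM in PD-L1-positive and 45.4 FPKM in normal cells. Means of DES and RGS5 were also lower in PD-L1-positive cells, whereas those of NOTCH3, KCNJ8 and MYH11 were higher. NOTCH3 measured 12.9, 13.6 and 13.3 FPKM in PD-L1-positive libraries and 6.08, 4.72 and 10.2 FPKM in normal ones. ITGA7, the laminin-binding integrin chain of muscle, averaged 44.1 ± 8.61 FPKM in PD-L1-positive and 8.27 ± 1.90 FPKM in normal cells (SD, n = 3 each) and rose by 2.35. Of 13 integrin chains 2 more rose, ITGB3 and ITGB1, and both lost their calls under scaling to equal FPKM sums and without PD-L1-positive replicate 1 or 2 or normal replicate 2.

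Of 20 ectoenzymes, which act on peptides and nucleotides outside the cell, 9 rose (45% beside 18.3% over all genes) and 3 fell (15% beside 24.6%). DPP4, a peptidase that trims chemokines and incretins and has been used as a surface mark of senescent fibroblasts, measured 104, 79.1 and 82.1 FPKM in PD-L1-positive libraries and 6.69, 6.28 and 10.8 FPKM in normal ones, and rose by 3.43 (SE 0.22, adjusted p = 0.000567). PLA2R1, a phospholipase receptor listed with them, rose by 2.06 and the peptidase MME by 1.39. ENPP1, which makes pyrophosphate from nucleotides and breaks down cGAMP outside cells, measured 5.39, 5.45 and 5.84 FPKM in PD-L1-positive libraries and 29.1, 18.3 and 13.6 FPKM in normal ones, and fell by 1.71. Among G protein-coupled receptors 5 of 41 rose (12.2% beside 18.3% over all genes) and 10 fell, a share of 24.4% that is near the 24.6% over all genes. Both bradykinin receptors rose, BDKRB2 to 33.9, 28.3 and 41.4 FPKM in PD-L1-positive libraries, against 2.67, 6.45 and 8.18 FPKM in normal ones, and BDKRB1 by 1.27. OXTR, the oxytocin receptor, measured 14.8, 17.8 and 13.8 FPKM in PD-L1-positive libraries and 97.6, 131 and 131 FPKM in normal ones and fell by 2.91 (SE 0.15, adjusted p = 0.000503), with clearly separate groups. ADGRG6, an adhesion receptor, fell by 2.03. Of 35 tested semaphorins, ephrins, Notch genes and other guidance molecules 10 rose (28.6%) and 5 fell (14.3%). Those that fell numbered 3 without PD-L1-positive replicate 1 and 8 without normal replicate 3 or under equal FPKM sums. SLIT3 rose by 2.35 while its relative SLIT2 fell by 1.42. SLIT3 averaged 38.3 FPKM in PD-L1-positive and 7.41 FPKM in normal cells, and SLIT2 averaged 20.5 FPKM in PD-L1-positive and 56.3 FPKM in normal cells.

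**Figure D3:**
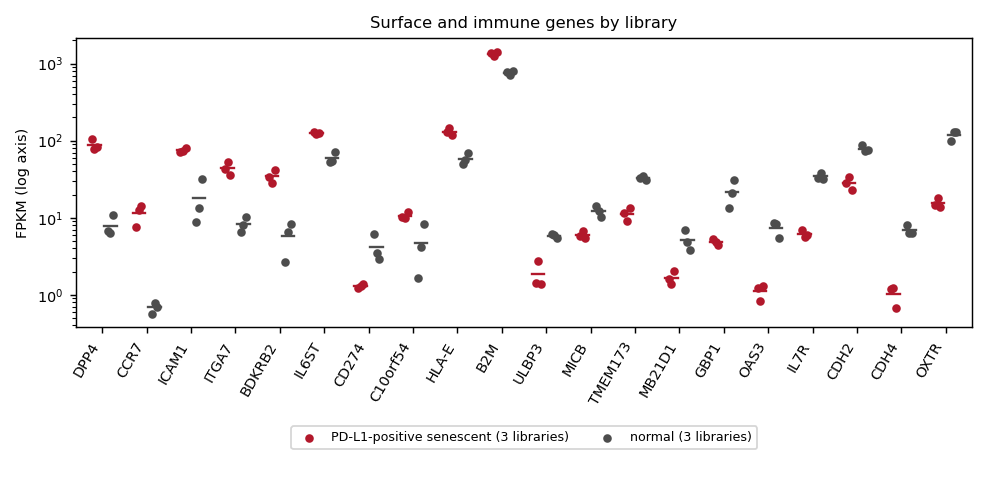
FPKM (log axis) of 20 surface and immune genes in each library, with PD-L1-positive senescent libraries in red to the left of normal libraries in grey for every gene, points for libraries and bars for means. DPP4, CCR7, ICAM1, ITGA7 and BDKRB2 lie higher in PD-L1-positive cells, and CD274, ULBP3, TMEM173, MB21D1, OAS3, IL7R, CDH4 and OXTR lie lower.

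Ligands by which cells hold back or stimulate T cells were called about as often as other genes. Of 16 tested, 4 were called higher (25% beside 18.3% over all genes) and 3 lower (18.8% beside 24.6%), CD274 among them, and those called higher numbered 1 under equal FPKM sums, between 0 and 3 when any library but normal replicate 3 was left out, and 8 without that library. BTN2A1, a butyrophilin that takes part in recognition by gamma delta T cells, measured 11.2, 12.5 and 12.1 FPKM in PD-L1-positive libraries and 20.2, 16.2 and 19.6 FPKM in normal ones, and fell by 0.62. C10orf54, which encodes the inhibitory ligand VISTA, measured 10.3, 9.80 and 11.9 FPKM in PD-L1-positive libraries and 1.65, 4.18 and 8.26 FPKM in normal ones. Its groups did not overlap, and its difference of 1.32 had an adjusted p of 0.0542, which was 0.00484 without normal replicate 3. PDCD1LG2, the second ligand of PD-1, averaged 11.6 FPKM in PD-L1-positive and 18 FPKM in normal cells with overlap and no call (log2 −0.55, 95% interval −1.18 to 0.08). CD276, another inhibitory ligand of the B7 family, averaged 62.7 FPKM in PD-L1-positive and 53.4 FPKM in normal cells and was not called. CD47, the signal against engulfment, averaged 20.9 ± 1.88 FPKM in PD-L1-positive and 15.4 ± 1.3 FPKM in normal cells (SD, n = 3 each) with an adjusted p of 0.0211, and it lost its call under equal FPKM sums and without PD-L1-positive replicate 1 or 2 or normal replicate 2.

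Genes of antigen presentation on MHC class I moved in both directions. Of 22 tested, 8 were called higher (36.4% beside 18.3% over all genes) and 5 lower (22.7% beside 24.6%). HLA-E, which presents leader peptides to NKG2A on NK cells, measured 129, 146 and 118 FPKM in PD-L1-positive libraries and 50.4, 55.6 and 68.3 FPKM in normal ones, and rose by 1.17 (adjusted p = 0.002). B2M, the light chain of every class I molecule, measured 1354, 1264 and 1433 FPKM in PD-L1-positive libraries and 768, 707 and 807 FPKM in normal ones, and rose by 0.83. HLA-C rose by 0.63 and MR1, which presents vitamin metabolites, by 1.10, although reads of the closely similar HLA genes may be shared among them. Those that fell were TAP2, a chain of the peptide transporter, by 0.78, the immunoproteasome subunit PSMB8 by 0.65, the trimming peptidase ERAP1 by 0.54, its relative ERAP2 by 0.48 and the chaperone CALR by 0.54. ERAP2 lost its call without PD-L1-positive replicate 1 or 2. Of 5 tested genes of the MHC class II pathway 2 were called higher and 1 lower, and neither of the 2 tested TNF superfamily ligands was called. TAP1 and PSMB9 had differences of −0.42 and −0.84 without a call.

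Of 12 tested ligands of NK cell receptors 4 were called lower, which is 33.3% beside 24.6% over all genes, HLA-E was called higher and 7 were not called. ULBP3, a stress ligand of the activating receptor NKG2D, measured 1.44, 2.75 and 1.38 FPKM in PD-L1-positive libraries and 6.07, 5.96 and 5.49 FPKM in normal ones, and fell by 1.47 (adjusted p = 0.00386). MICB, of the same kind, measured 5.88, 6.76 and 5.54 FPKM in PD-L1-positive libraries and 14.2, 12.4 and 10.2 FPKM in normal ones, and fell by 0.95, and ULBP2 fell by 0.90. MICA averaged 32.7 FPKM in PD-L1-positive and 28.6 FPKM in normal cells and was not called, and neither were PVR and PVRL2, ligands of DNAM-1, with differences of −0.10 and −0.03.

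None of 25 tested genes of cytosolic nucleic acid sensing was called higher and 9 were called lower. This is 36.0% beside a background of 24.6%. Under equal FPKM sums 12 were lower, but that scaling also raised the lower calls over all genes from 2904 to 3609. TMEM173, which encodes STING, measured 11.4, 8.98 and 13.4 FPKM in PD-L1-positive libraries and 33.1, 34.8 and 30.7 FPKM in normal ones, and fell by 1.52 (SE 0.15, adjusted p = 0.00134). MB21D1, which encodes the DNA sensor cGAS upstream of STING, measured 1.60, 1.39 and 2.03 FPKM in PD-L1-positive libraries and 6.85, 4.81 and 3.83 FPKM in normal ones, and fell by 1.36. RNASEH2A, a nuclease subunit that removes RNA from DNA and is also used in replication, measured 10.4, 11 and 8.61 FPKM in PD-L1-positive libraries and 58.5, 42.5 and 20.9 FPKM in normal ones, which is the order of MKI67 over the normal libraries. Interferon-stimulated genes did not move together. Of 35 tested, 8 were called higher (22.9% beside 18.3% over all genes) and 6 lower (17.1% beside 24.6%). When 1 library was left out 5 to 8 were higher and 2 to 10 were lower. The counts were 5 higher without PD-L1-positive replicate 1 or 3 or normal replicate 2, 2 lower without PD-L1-positive replicate 1 or normal replicate 2, 3 lower without PD-L1-positive replicate 2 and 10 lower without normal replicate 1. IRF1, a transcription factor of interferon responses, measured 19.3, 19.5 and 28.6 FPKM in PD-L1-positive libraries and 4.28, 5.58 and 7.75 FPKM in normal ones, and rose by 1.86. OAS3, which makes the activator of RNase L, measured 1.23, 0.840 and 1.28 FPKM in PD-L1-positive libraries and 8.55, 8.28 and 5.42 FPKM in normal ones and fell by 2.28, and the guanylate binding protein GBP1 fell by 1.97.

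NF-kB subunits, inhibitors and targets had 13 of 27 tested genes higher and 1 lower, with a median of 0.70 and 8 higher without PD-L1-positive replicate 1. Promoters of NFKBIA (chr14:35404786-35404865, minus strand) and TNFAIP3 (chr6:137867157-137867236, plus strand) are shown because both genes feed back on NF-kB and both hold the letters given above on the opposite strand, so that the capitals show their complement as read along the gene.
NFKBIA: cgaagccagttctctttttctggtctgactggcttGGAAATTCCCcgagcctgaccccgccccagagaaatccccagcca
TNFAIP3: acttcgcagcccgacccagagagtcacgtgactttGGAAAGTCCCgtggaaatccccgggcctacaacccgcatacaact
NFKBIA, the inhibitor that holds NF-kB in the cytoplasm, measured 127, 113 and 112 FPKM in PD-L1-positive libraries and 37.8, 39.7 and 38.1 FPKM in normal ones, and rose by 1.59 (SE 0.09, adjusted p = 0.000558). TNFAIP3, the ubiquitin-editing enzyme A20, measured 30.1, 25.5 and 34.5 FPKM in PD-L1-positive libraries and 4.66, 6.8 and 5.97 FPKM in normal ones and rose by 2.28. SOD2, the mitochondrial superoxide dismutase, rose by 2.62. The subunit RELA, chosen after its values were seen, averaged 35.5 FPKM in PD-L1-positive and 34.7 FPKM in normal cells (log2 0.03, 95% interval −0.17 to 0.22).

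Of 12 tested genes of prostanoid synthesis and signalling, 7 rose (58.3% beside 18.3% over all genes) and 2 fell (16.7% beside 24.6%). Those that rose numbered 3 without normal replicate 2 and 4 without PD-L1-positive replicate 1 or 3. PTGIS, the prostacyclin synthase, measured 112, 72.1 and 114 FPKM in PD-L1-positive libraries and 3.13, 7.96 and 13.8 FPKM in normal ones, and rose by 3.68. AKR1C1, a reductase that acts on steroids and prostaglandins, rose by 1.79, although its near relatives may share reads. PTGS2, the inducible cyclooxygenase at the head of the pathway, measured 15.2, 12.9 and 17.3 FPKM in PD-L1-positive libraries and 19.3, 15.2 and 12.6 FPKM in normal ones, with overlap and no call (log2 −0.04, 95% interval −0.46 to 0.38).

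Genes of mitosis were lower in the senescent cells, as the proliferation markers were. Of 59 tested, 56 fell and none rose, with a median of −1.76. The count that fell was 20, 19 and 29 without PD-L1-positive replicates 1, 2 and 3 and 17 without normal replicate 2. Lower calls over all 11800 genes dropped in these runs as well. They went from 2904 to 1677, 1680 and 2127 without those PD-L1-positive replicates and to 1697 without normal replicate 2. PLK1, the kinase that BI-2536 blocks, measured 11.7, 9.39 and 12.8 FPKM in PD-L1-positive libraries and 134, 64.3 and 29.5 FPKM in normal ones, and fell by 2.45. CCNA2, cyclin A2, measured 7.21, 6.59 and 8.37 FPKM in PD-L1-positive libraries, against 95.3, 49.5 and 20.6 FPKM in normal libraries. The 3 normal libraries were several-fold apart for both genes while the PD-L1-positive ones lay close together. The letters TTTGAA, the core of the cell cycle homology region bound by repressor complexes of quiescent cells, were in 35 of 51 mitosis promoters (68.6%) on either strand, in 9.5% of tested promoters and in 4212 of all promoters (15.4%). They were in 1 of 45 DNA replication promoters (2.2%). None of the 10 chemokine promoters held them, which are too few to tell from 9.5%. The upstream bases of PLK1 (chr16:23678809-23678888, plus strand) are shown as an example, with these letters in capitals.
PLK1: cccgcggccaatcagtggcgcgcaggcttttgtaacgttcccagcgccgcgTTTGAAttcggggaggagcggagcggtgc
Of 52 DNA replication genes 43 fell and 1 was called higher. In the same runs with fewer calls over all genes, those that fell numbered 20, 21 and 22 without PD-L1-positive replicates 1, 2 and 3. Without normal replicate 2 they numbered 17. GINS2, of the replication helicase, measured 4.12, 3.54 and 3.85 FPKM in PD-L1-positive libraries and 36.6, 28.5 and 12.7 FPKM in normal ones.

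Of 35 p53 targets 18 rose and 1 fell, and of 44 lysosomal genes 29 rose and 4 fell. RRM2B, the p53-dependent subunit of ribonucleotide reductase, measured 23.7, 25.2 and 24.6 FPKM in PD-L1-positive libraries and 6.98, 9.11 and 8.03 FPKM in normal ones, and rose by 1.56. The lysosomal fucosidase FUCA1 measured 10.6, 10.7 and 8.61 FPKM in PD-L1-positive libraries and 1.78, 2.37 and 3.07 FPKM in normal ones and rose by 1.87, whereas the thioesterase PPT1 measured 12.2, 11.7 and 10.5 FPKM in PD-L1-positive libraries, against 37.2, 39.3 and 37.8 FPKM in normal libraries and fell by 1.69. Actin and contractile genes were lower in 21 of 38 cases and higher in 4, the second count being 1 without PD-L1-positive replicate 1 or 2 or normal replicate 2, 2 without PD-L1-positive replicate 3 and 10 without normal replicate 3. Together they made up 2.42% of the FPKM in PD-L1-positive and 4.37% in normal cells. ACTB, the main cytoplasmic actin, measured 2068, 2088 and 1661 FPKM in PD-L1-positive libraries and 5160, 5165 and 5620 FPKM in normal ones, and fell by 1.46 (SE 0.11, adjusted p = 0.00074). ACTC1, cardiac actin, fell by 3.16 to below 0.21 FPKM in each PD-L1-positive library.

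Over all genes, the largest rises that held when any 1 library was left out included TXNIP, RARRES2 and LYPD3, and the largest falls CRIP1, KRT81 and SAMD11. TXNIP, an inhibitor of thioredoxin that limits glucose uptake, measured 56.1, 83.8 and 44.1 FPKM in PD-L1-positive libraries and 3.70, 1.96 and 0.797 FPKM in normal ones, and rose by 4.65. CRIP1, a small LIM domain protein, measured 3.46, 2.30 and 5.51 FPKM in PD-L1-positive libraries and 46.8, 42.2 and 38.2 FPKM in normal ones and fell by 3.40, and the hair keratin KRT81 fell by 3.29. SNORA70 was listed at 52.9, 30.7 and 122 FPKM in PD-L1-positive libraries and at 0, 0 and 27.5 FPKM in normal ones, and it lost its call without any of the libraries but normal replicate 3 (adjusted p = 0.1 without normal replicate 1, for example). By the lowest p, the leading genes beside PLAT, LOXL4, IL7R, OXTR, NFKBIA and PPT1 were AMPD3, SMIM3, PAMR1 and MOXD1. AMPD3, an AMP deaminase, measured 23.8, 22.5 and 21.7 FPKM in PD-L1-positive libraries and 2.59, 3.03 and 3.24 FPKM in normal ones, and rose by 2.75 (SE 0.11, adjusted p = 0.000346). MOXD1, a monooxygenase-like protein, averaged 195 ± 17.2 FPKM in PD-L1-positive and 39.3 ± 3.87 FPKM in normal cells (SD, n = 3 each).

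**Figure D4:**
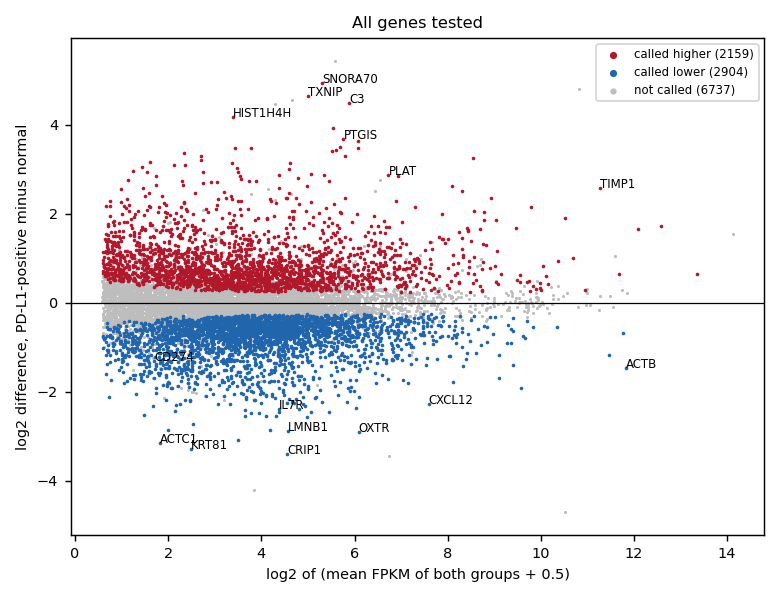
Each point is 1 of the 11800 genes tested, with the log2 of its mean FPKM over both groups plus 0.5 on the horizontal axis and the log2 difference, PD-L1-positive senescent minus normal, on the vertical axis. Called genes are red (higher) or blue (lower), others are grey, and some genes are labelled. Called genes number 2159 above and 2904 below 0, with C3 and TXNIP near the top and OXTR and ACTC1 near the bottom.

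None of these differences was shown to be particular to the PD-L1-positive fraction. Between PD-L1-positive and PD-L1-negative senescent cells limma called 0 of the 11800 genes, with 184 at an unadjusted p under 0.05, and in a fit of the 6 senescent libraries alone it also called 0, with 463. CXCL6 averaged 94.4 FPKM in PD-L1-positive and 87.4 FPKM in PD-L1-negative cells, C3 averaged 112 FPKM in PD-L1-positive and 103 FPKM in PD-L1-negative cells, and CCR7 averaged 11.4 FPKM in PD-L1-positive and 7.17 FPKM in PD-L1-negative cells.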

How the data were processed

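Poly(A) RNA of HCA2 fibroblasts was sequenced in 9 libraries, 3 for each of 3 groups, from a directional kit per the labels' protocols. The authors deposited 1 table of FPKM for 52741 RefSeq transcripts, per the file headers. STAR 2.5.2a, HTSeq 0.11.2, DESeq2 1.22.2 and hg19 are named in the submitters' processing notes, while the program that made the FPKM, its use of strand and its sharing of multi-mapped reads are not given in the sources used here. FPKM of the transcripts of a symbol were summed, and genes with a mean of at least 1 FPKM over the 6 libraries compared were kept. limma 3.58.1 in R 4.3.3 was fitted to log2(FPKM + 0.5) of these 6 libraries with an intensity trend, with Benjamini-Hochberg adjustment over all 11800 genes and a threshold of 0.05. The fit was tested on simulated data. Differences on this scale understate changes of low genes. No count test was run because the table holds no counts and whole reads were not recovered, so that depth is an estimate and values carry no counting interval. Overlapping and antisense genes cannot be told apart. Sums, promoter searches and plots used pandas 2.3.3, numpy 2.4.6, matplotlib 3.10.9 and scipy 1.17.1 under Python 3.11.15.

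The genes compared and the 36 lists, of 1152 symbols, were chosen with earlier results of these data known. The list of genes to name came from a rule: 7 set genes, up to 5 called members per list and direction with the largest difference, the 15 largest called differences per direction among genes with a mean of at least 5 FPKM and no overlap, the 10 lowest p-values, and every member of the checkpoint, MHC class I, NK ligand and cytokine receptor lists. Another 36 genes were chosen after their values were seen, among them CXCL5, CXCL3, IGF2, IL11, LIF, MMP1, MMP3, COL1A1, VEGFA, RELA and PTGS2. Alternatives covered the added constant, the filter, scaling, the trend, sample weights, the libraries fitted, the replicate number, the threshold and each library left out. Tables without small RNA genes and with NM transcripts only were added after seeing the data. Promoters came from RefSeq on GRCh38.p14 by symbol, since the table's own build is hg19. Some genes are not reported here.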

Additional observations from a re-analysis of the deposited data

How the results depend on the processing

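No called named gene changed sign in any alternative run. Which direction had more genes past a log2 difference of 1 did change, with 662 higher and 718 lower as reported, against 743 and 635 under median-of-ratios scaling, 700 and 685 under quantile normalization, 731 and 641 without small RNA genes, 707 and 686 with no filter, 513 and 470 at an adjusted p under 0.01, and more higher than lower also without PD-L1-positive replicate 1 (609 and 549), 2 or 3 or normal replicate 2. With the threshold at 0.05 the calls were 2159 higher and 2904 lower. When each library was left out in turn they ranged over 1315 to 2534 higher and 1677 to 3378 lower, and the low ends came without PD-L1-positive replicate 1 or 2 or normal replicate 2. At an adjusted p under 0.01 there were 1022 higher and 1288 lower, and 470 lower by at least 1 on the log2 scale against 718. With sample weights, whose estimation stopped before convergence, 3938 were higher and 4886 lower. With a mean of at least 5 FPKM, which leaves 8384 genes, 406 against 662 were higher by at least 1. Apart from the constructions named, the cause was not tested. Higher genes were 42.6% of the calls, and 30.5% under equal FPKM sums, 49.8% under median-of-ratios scaling, 49.1% without small RNA genes and 48.4% under quantile normalization. The replicate numbers showed no clear pairing of the libraries. Deviations of equal numbers correlated at −0.02, 0.03 and 0.13 and those of unequal numbers at −0.12 to 0.11. With 3 libraries a group these values cannot settle whether the numbers are pairs. With the number as a replicate block 2015 were higher and 2577 lower. CD274 (log2 difference −1.31, which a balanced block cannot move) then had a limma adjusted p of 0.0179 in place of 0.00823. Of 281 called genes among the 335 named, 60 lost their call when a library was left out and 28 in another alternative, and 30 uncalled ones gained one. CD274 was called in each alternative that tested it, between −1.02 without normal replicate 1 and −1.53 with 0.1 added before the log. With 3 libraries a group and normal libraries this far apart, genes such as LIF, VEGFA and C10orf54 stand at the edge of the threshold.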

Other observations

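Further genes of the intracellular lists gave differences of the following sizes. MANBA, the lysosomal beta-mannosidase, measured 18.5, 19.3 and 16.5 FPKM in PD-L1-positive libraries and 3.59, 3.56 and 5.99 FPKM in normal ones, and rose by 1.96. The cysteine cathepsins CTSF and CTSK rose by 1.70 and 1.57, while CTSC, which activates proteases of leukocytes, fell by 0.76. Lysosomal genes therefore did not all move one way. BTG2, an antiproliferative p53 target, measured 45.5, 26.9 and 34.7 FPKM in PD-L1-positive libraries and 1.75, 5 and 8.69 FPKM in normal ones, and rose by 2.87. Of the contractile genes, the calponins CNN1 and CNN2 fell by 1.20 and 1.28 and TGFB1I1, a focal adhesion protein, fell by 1.52, whereas the smooth muscle actin ACTG2 rose by 1.05. RARRES2, which encodes the chemoattractant chemerin and was in none of the secreted lists, measured 23.1, 8.27 and 26.2 FPKM in PD-L1-positive libraries and 0.290, 1.38 and 2.17 FPKM in normal ones, a log2 difference of 3.48. RRAD, a small GTPase of the Ras family, measured 121, 85.7 and 157 FPKM in PD-L1-positive libraries and 4.21, 5.71 and 28.5 FPKM in normal ones, and its log2 difference of 3.64 was 4.45 without normal replicate 3.

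In promoters of DNA replication genes the E2F letters TTTGGCGC or TTTCCCGC, on either strand, were found in 18 of 45 windows (40.0%), beside 3.9% of the windows of tested genes and 2.3% of all windows. This describes the letters of the windows and no binding.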
